A study of Mus musculus with 2 samples.

Results

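Ifitm1, Ifitm2, Ifitm3 and Ifitm6 are 4 genes of the interferon-induced transmembrane protein family, and their counts were described in the cells of a mouse melanoma. The genes were taken by symbol from the 14654 genes of the deposited table of raw counts. They were selected on their measured levels in these same cells, above all the ratio of Ifitm1 between the libraries, so the values below are descriptions of a known pattern and carry no test. Tumors of YUMMER1.7, a BRAF-mutant melanoma line with a high mutation load, had grown under the skin of 8-week-old male C57BL/6 hosts for 11 days. The hosts were wild type (WT) or Siah2-/-, meaning that the host, and not the implanted tumor line, lacked the ubiquitin ligase Siah2. Live CD45+ leukocytes were sorted from each group, and some sorted CD45- cells were mixed back in. Each genotype gave 1 droplet library, so genotype, tumors, sort, library and sequencing lane cannot be told apart, and all intervals below are 95% intervals that cover counting error only. The number of mice behind a library was not given in the sources used here.

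IFITM proteins are small membrane proteins that sit in the plasma membrane and in endosomes, where Ifitm3 in particular hinders the fusion of viruses with the cell. Most of the family is switched on by interferons, and several members are also present without interferon in leukocytes, fibroblasts and germ cells. Ifitm6 is known from cells of the myeloid lineage, Ifitm5 is a bone gene, and the tetraspanin CD81 is a membrane partner of IFITM proteins.

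The members lie side by side in GRCm38. Ifitm2 (ENSMUSG00000060591) runs from 140954837 to 140955987 on the minus strand of chromosome 7, and Ifitm1 (ENSMUSG00000025491) from 140967221 to 140969825 on the plus strand. Ifitm3 (ENSMUSG00000025492) runs from 141009586 to 141010770 and Ifitm6 (ENSMUSG00000059108) from 141015699 to 141017924, both on the minus strand. With Ifitm5 (140948958 to 140950291, minus strand) they fill 68.97 kb. Reads of near-identical genes can be split or lost in counting, and here the overlap was small. Of the 629 windows of 50 bases in Ifitm3 transcripts, 20 also occurred in Ifitm2 and 15 in Ifitm1, and Ifitm6 shared none with any member. Within the last 400 bases of each transcript, where this chemistry reads, the shared windows were 15 of 351 in Ifitm3 and none in the other members.

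The RefSeq start regions of the members are shown because these windows differ in the interferon-type elements they hold. The windows are from RefSeq (GRCm38.p6) and run from 70 bases before to 30 bases after the RefSeq start, on the strand of the gene. Their coordinates are chr7:140955932-140956031 for Ifitm2, chr7:140968006-140968105 for Ifitm1, chr7:141010715-141010814 for Ifitm3 and chr7:141016863-141016962 for Ifitm6. The RefSeq start of each member lies inside the gene as GENCODE draws it, and for Ifitm1 and Ifitm6 it lies so far inside that the sequence before the GENCODE start was not searched. Capitals mark matches, on either strand, to GAAA, any 2 bases and GAAA, the repeat bound by interferon regulatory factors, or to TTC, any 3 bases and GAA, the site bound by STAT proteins.
Ifitm1: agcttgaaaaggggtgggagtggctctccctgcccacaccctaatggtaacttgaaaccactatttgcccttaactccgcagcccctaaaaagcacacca
Ifitm2: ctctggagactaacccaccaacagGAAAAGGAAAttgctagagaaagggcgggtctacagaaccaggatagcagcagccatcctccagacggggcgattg
Ifitm3: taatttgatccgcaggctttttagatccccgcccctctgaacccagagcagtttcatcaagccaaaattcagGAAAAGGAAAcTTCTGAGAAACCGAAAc
Ifitm6: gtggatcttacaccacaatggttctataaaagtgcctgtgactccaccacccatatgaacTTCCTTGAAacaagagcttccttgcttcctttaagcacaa
The whole windows of 300 bases, from 250 before to 50 after the start, were searched. The GAAA repeat occurred in Ifitm2 from base -46 and in Ifitm3 from bases 2 and 19, counted from 0 at the RefSeq start, against 3.44% of 32851 RefSeq promoters of the same length. The TTC and GAA pattern occurred in Ifitm3 from base 13, overlapping the GAAA repeat at 19, and in Ifitm6 from base -10, against 8.30% of the promoters. Neither pattern was found in the window of Ifitm1.

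The cells analysed were the 4512 WT and 5563 Siah2-/- cells found in both deposited tables, with 64793053 and 59090284 unique molecular identifiers (UMIs, 1 per captured transcript). The median cell had 11439.5 UMIs in WT and 8700 in the other library, and the shallowest had 6670 and 4896. Siah2 itself was counted in both libraries, at 10.2 and 8.55 counts per 1000000 UMIs (CPM), and a tag near the 3′ end can lie outside the deleted part, so it checks nothing. The second library is therefore called the library labelled Siah2-/-. The libraries shared 34 cell barcodes. Cells were gated on UMIs of marker genes into T, NK, macrophage, dendritic cell (DC) and CD45-negative classes, each meaning cells like that type. Barcodes with markers of 2 classes, 482 in WT and 632 in the Siah2-/--labelled library, stayed out of the classes as mixed, and 82 and 110 had no class. Cd3d was detected in every CD8 T cell of both libraries, Ncr1 in 96.9% and 94.6% of NK cells and Csf1r in 98.0% and 96.5% of macrophages.

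Over all analysed cells, each member was higher in the library labelled Siah2-/-. Ifitm1 went from 426 to 1821 CPM, a log2 ratio of 2.10 (2.08 to 2.11). Ifitm6 went from 31.6 to 95.8 CPM, a log2 ratio of 1.60 (1.53 to 1.67). Ifitm2 went from 1179 to 1855 CPM, a log2 ratio of 0.65, and Ifitm3 from 2809 to 3493 CPM, a log2 ratio of 0.31. CPM of different genes are not compared here, since capture at the 3′ end differs between genes. RNA that floats free in the suspension moved in the same direction. In barcodes of 1 to 100 UMIs, which hold no cell, Ifitm1 was at 479 CPM in WT and 1517 CPM in the Siah2-/--labelled library. Ifitm2 was at 1148 and 1871 CPM there, Ifitm3 at 2363 and 2776 CPM, and Ifitm6 at 48.5 and 78.1 CPM. The log2 ratio in free RNA was thus 1.66 for Ifitm1, 0.70 for Ifitm2, 0.23 for Ifitm3 and 0.69 for Ifitm6. These values depend on the range of barcodes. In barcodes of 1 to 50 UMIs the ratios were 1.32, 0.43, 0.16 and 0.82, and 7 of 8 levels lay outside their intervals.

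How much of a class level this free RNA could supply was measured with genes the class should lack. In lymphoid classes these were C1qa, C1qb, C1qc, Lyz2 and Apoe, and in myeloid classes Nkg7, Gzma, Klrd1 and Ctsw. The median lacking gene in CD8 T cells reached 0.0398 of its free RNA level in WT and 0.0502 in the Siah2-/--labelled library. In macrophages it reached 0.0256 and 0.0505. A member near those ratios is read as background, and one far above them as RNA held by cells of the class. Col1a1, Col1a2 and Col3a1, collagen genes that leukocytes should also lack, were a further check. Their median was 0.2885 and 0.0571 in CD8 T cells and 0.277 and 0.158 in macrophages. It reached 1.13 in WT CD4 T cells, 0.889 in WT other T cells and 1.93 in Siah2-/--labelled mature DC.

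**Figure D1:**
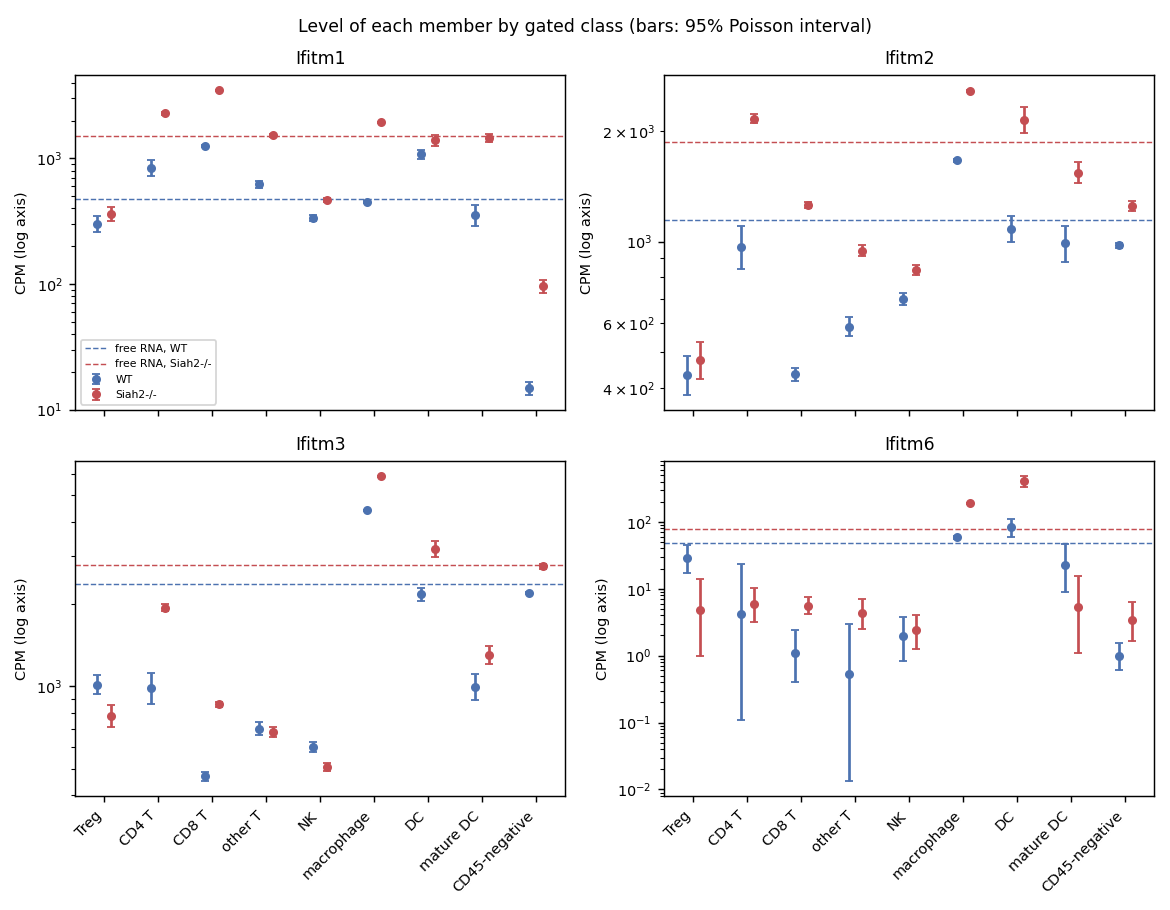
Level of each member (CPM, log axis) in 9 gated classes, in WT (blue) and in the library labelled Siah2-/- (red), with 95% Poisson intervals and the free RNA level of each library as a dashed line. Ifitm1 stands highest in CD8 T cells (1251 and 3480 CPM) and lowest in CD45-negative cells, and Ifitm3 stands highest in macrophages (4403 and 5858 CPM).

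Ifitm1 was above the lymphoid or myeloid lacking genes in each of the 8 leukocyte classes, relative to free RNA, and highest in CD8 T cells. In mature DC of the library labelled Siah2-/-, however, Ifitm1 was at 0.957 of free RNA, below the median collagen gene at 1.93. Its order in WT was CD8 T cells (1251 CPM), DC (1080), CD4 T cells without Foxp3 (843), other T cells (620), macrophages (447), mature DC (351), NK cells (337), Foxp3+ T cells (Treg, 299) and CD45-negative cells (14.8). Mature DC, NK and Treg could not be ordered in WT, because neighbouring intervals overlapped. The places of CD4 T cells and DC are also unsure. Without 1 of 22 cells CD4 T cells were at 399 CPM, below other T cells (538 CPM without their top cell), and with stricter gates DC were at 26.0 CPM. In the library labelled Siah2-/- the order began with CD8 T cells (3480 CPM), CD4 T cells (2283), macrophages (1946), other T cells (1533), mature DC (1452) and DC (1395), of which other T cells, mature DC and DC overlapped as neighbours. NK cells (464 CPM), Treg (361.5 CPM) and CD45-negative cells (95.8 CPM) closed it. CD8 T cells thus stood first in both libraries, at 2.61 and 2.29 times the free RNA level.

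Ifitm1 was higher in the library labelled Siah2-/- in all 9 classes, with an interval above 0 in 8 and more than 2-fold in 6. In macrophages the log2 ratio was 2.12 (2.09 to 2.15), from 10454 UMIs in 2025 WT cells against 45026 UMIs in 2286 cells. Of 10899 genes with at least 50 UMIs in macrophages, 3.52% were at least 2-fold higher in that library, and Ifitm1 and Ifitm6, 2 of the 4 members, were among them. Ifitm1 was 46th of those genes by its ratio. In CD8 T cells the log2 ratio was 1.48 (1.44 to 1.51), from 467 and 843 cells, but it was 0.00 (-0.09 to 0.09) in the smaller barcodes of that gate, outside the analysed cells. The background there was 2.62% of 8999 genes, and Ifitm1, Ifitm2 and Ifitm6 were past 2-fold, the last on 6 and 48 UMIs, of which 1 cell held 23. In CD4 T cells the log2 ratio was 1.44 (1.23 to 1.65), and in that class 2 of 3 members were past 2-fold against 9.5% of genes. That value rests on 22 WT cells, 1 of which held 54.0% of the Ifitm1 UMIs, and without the top cell of each library it was 2.49. In smaller barcodes of that gate, outside the analysed cells, Ifitm1 was at 913 CPM in 258 WT barcodes and 1540 CPM in 405 others, a log2 ratio of 0.75 (0.64 to 0.87), under 2-fold. In other T cells Ifitm1 had a log2 ratio of 1.30 (1.21 to 1.40) and was 1 of 3 members past 2-fold, against 3.89% of genes, but stricter gates gave 0.94, under 2-fold. In mature DC it had a log2 ratio of 2.05 (1.76 to 2.35) and was 1 of 3 members, against 5.27%. Stricter gates moved it to 66.8 CPM, from 10 UMIs in 13 WT cells, and 1046 CPM in 13 others, a log2 ratio of 3.97.

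No member with at least 50 UMIs was 2-fold lower in the library labelled Siah2-/- in any class. The share of all genes 2-fold lower was 4.77% in macrophages, 2.66% in CD8 T, 5.95% in CD4 T, 5.09% in other T and 1.75% in NK cells. It was 4.59% in Treg, 4.83% in DC, 1.71% in mature DC and 3.8% in CD45-negative cells.

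In NK cells the difference in Ifitm1 was under 2-fold, and in DC it depended on the gate. NK cells held 337 and 464 CPM, a log2 ratio of 0.46 (0.37 to 0.56), and none of 3 members was past 2-fold, against 2.74% of genes. DC held 1080 and 1395 CPM, a log2 ratio of 0.37 (0.18 to 0.56). Without the cell with the most UMIs in each library DC held 918.5 and 998 CPM, a log2 ratio of 0.12. Stricter gates left 8 WT cells with 3 Ifitm1 UMIs (26.0 CPM) and 6 others with 95 UMIs (1599 CPM), and the mean of CPM per cell turned the direction, to -0.33. The DC of the libraries were of different make-up, since Xcr1, a marker of cross-presenting DC, was detected in 54.1% of 37 WT cells and 17.9% of 28 cells. Cd209a, a marker of the other conventional DC, was detected in 32.4% and 67.9% of them. The part of this in the DC values was not tested.

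In Treg the ratio of Ifitm1 turned on single cells. The gate gave 55 WT and 76 Siah2-/--labelled cells, with 299 and 361.5 CPM and a log2 ratio of 0.27 (-0.01 to 0.56). In WT 1 cell held 114 of 187 UMIs, and in the other library 1 cell held 107 of 224. Without those cells Ifitm1 was at 120.1 and 190.5 CPM. With at least 2 Foxp3 UMIs and stricter gates it was at 83.4 CPM in 25 cells and 672 CPM in 31 cells, a log2 ratio of 3.01. After each cell had been thinned to 4000 UMIs, 10.9% (4.11 to 22.3) of WT Treg and 32.9% (22.5 to 44.6) of the others had an Ifitm1 UMI. Without thinning those shares were 14.6% and 44.7%. Thinned to 2000 UMIs they were 9.09% (3.02 to 19.95) and 11.8% (5.56 to 21.3), with intervals that overlapped. None of 3 members was past 2-fold in Treg, against 4.9% of genes.

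**Figure D2:**
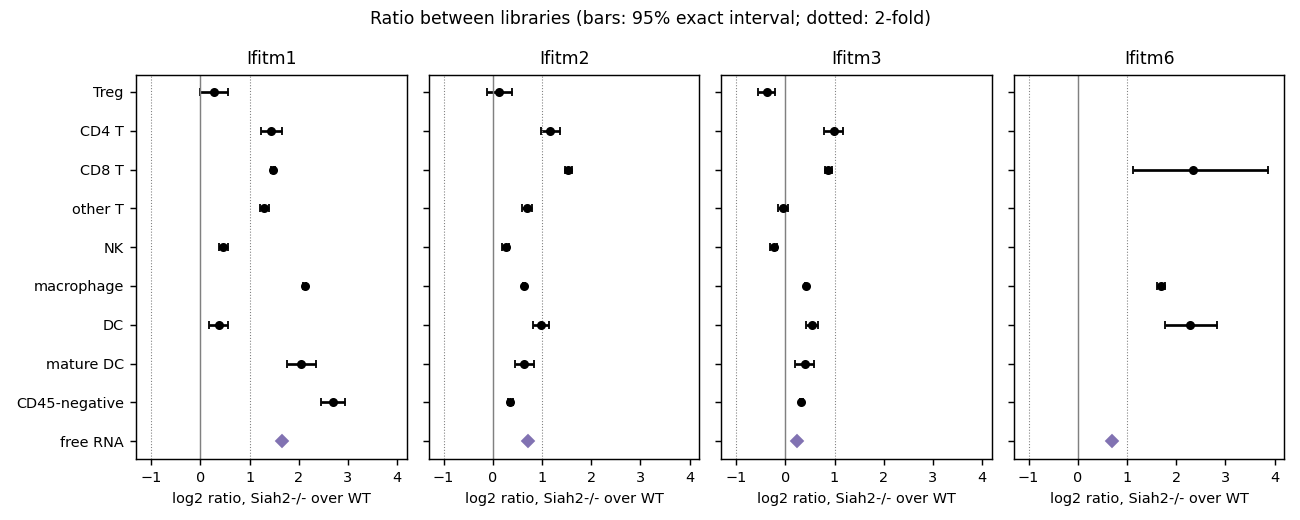
Log2 ratio of each member, library labelled Siah2-/- over WT, in each class with at least 50 UMIs of the member (black, 95% exact binomial interval) and in free RNA (purple diamond), with dotted lines at 2-fold. Ifitm1 lies right of 0 in every class, while Ifitm3 lies left of 0 in NK cells (-0.24) and in Treg (-0.38), where stricter gates turned it to 0.60.

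In CD45-negative cells Ifitm1 was at the level of background. It was at 14.8 CPM in 750 WT cells and 95.8 CPM in 129 cells of the other library, a log2 ratio of 2.70 (2.45 to 2.94) and the largest of the 9 classes. It was the 1 of 3 members past 2-fold there, against 3.79% of genes. Those levels are 0.0309 and 0.0631 of free RNA. The genes that CD45-negative cells should lack were at a median of 0.0233 for WT and 0.0468 for the other library. From the lowest to the highest of these genes the range was 0.0174 to 0.0288 and 0.0383 to 0.0652. Without the 1 WT cell that held 65 of the 280 UMIs, Ifitm1 was at 0.0237 of free RNA, inside the WT range. The 2.70 is therefore not read as a change in these cells.

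Shares of cells were set beside those of CD45-negative cells. At 4000 UMIs, an Ifitm1 UMI was seen in 4% (2.72 to 5.66) of WT CD45-negative cells and in 24.0% (17 to 32.3) of the others, and 22.5% and 72.9% without thinning, at median depths of 23049 and 25084 UMIs. NK cells with an Ifitm1 UMI made up 14.7% (11.3 to 18.6) in WT and 32.6% (28.9 to 36.5) in the other library at 4000 UMIs. The share of Treg overlapped that of CD45-negative cells in both libraries, and that of NK cells did in the library labelled Siah2-/-. CD8 T cells, at 43.0% and 65.5%, and macrophages, at 36.7% and 76.9%, had higher shares. CD45-negative cells are deeper than CD8 T cells, with medians of 9832 and 8550 UMIs, and macrophages, with 10077 and 8911.5, so a fixed amount of free RNA weighs less in them after thinning and their share is a low estimate of background for leukocytes.

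Among CD8 T cells Ifitm1 was split between cells with none and cells with many. In WT CD8 T cells thinned to 4000 UMIs the median was 0 UMIs, yet 30.2% of cells had 5 or more and 20.6% had 10 or more. In the library labelled Siah2-/- the median was 3 UMIs, with 46.4% of cells at 5 or more and 38.3% at 10 or more. In the deposited counts, 26.1% of WT CD8 T cells and 33.6% of the others held 90% of the Ifitm1 UMIs. Macrophages had at least 1 UMI in 36.7% and 76.9% of cells but 5 or more in 12.4% of WT cells and 43.7% of the others. In them, 22.6% and 42.5% of the cells held 90% of the UMIs. By that measure Ifitm1 was more evenly spread in macrophages than in CD8 T cells only in the library labelled Siah2-/-. Both the share of cells with many UMIs and the UMIs per cell were thus higher in the library labelled Siah2-/-.

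**Figure D3:**
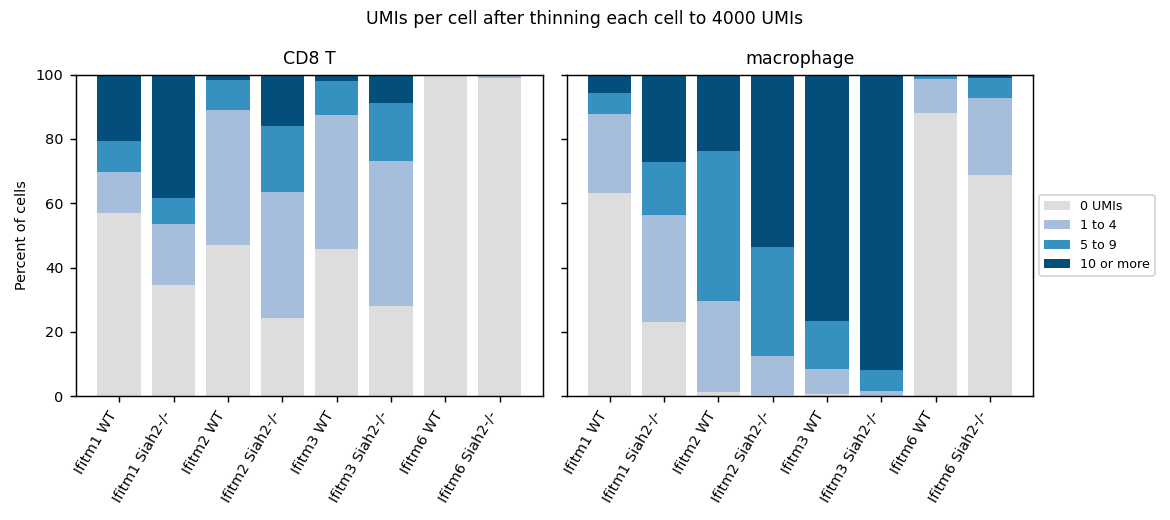
Percent of CD8 T cells and of macrophages with 0, 1 to 4, 5 to 9, or 10 or more UMIs of each member after thinning every cell to 4000 UMIs. Ifitm1 is split in CD8 T cells, with 20.6% and 38.3% of them at 10 or more UMIs, while Ifitm3 is found in 99.3% and 100% of macrophages.

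Cells were also divided by cycling genes, a division made after the data had been seen. CD8 T cells with 2 or more UMIs of Mki67 and Top2a, genes of dividing cells, held 1165 and 2576 CPM of Ifitm1. Those with none held 1322 and 3928 CPM. NK cells had no common direction, with 331 CPM in cycling cells against 293 CPM in WT and 310.5 against 505 CPM in the other library.

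Ifitm2 was present in every class, with macrophages first in both libraries. In macrophages it was at 1662 and 2566 CPM, a log2 ratio of 0.63 (0.61 to 0.65), and was found in 98.8% and 99.7% of cells at 4000 UMIs. DC held 1085 and 2146 CPM, a log2 ratio of 0.98 (0.82 to 1.15). CD45-negative cells held 977 and 1249 CPM, mature DC 989 and 1541 CPM and NK cells 698 and 837 CPM. With these gates the largest differences were in CD8 and CD4 T cells. With stricter gates DC differed more, at 589 and 2205 CPM from 8 and 6 cells, against 425 and 1302 CPM in CD8 T cells. CD8 T cells held 435 and 1258 CPM, a log2 ratio of 1.53 (1.47 to 1.60). CD4 T cells held 967 and 2160 CPM, a log2 ratio of 1.16 (0.97 to 1.36), from 22 and 310 cells. In 258 and 405 barcodes of that gate below the analysed cells it was 0.64 (0.53 to 0.75), under 2-fold. In Treg Ifitm2 was at 433.5 and 476 CPM, no difference beyond counting error (log2 ratio 0.13, -0.11 to 0.38). CD8 T cells stood next to last of the 9 classes in WT, with an interval that overlapped that of Treg, and in place 5 in the library labelled Siah2-/-.

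Ifitm3, the best known antiviral member, was highest in macrophages in both libraries, at 4403 and 5858 CPM and a log2 ratio of 0.41 (0.40 to 0.42). The median macrophage held 17 UMIs in WT and 24 in the other library at 4000 UMIs. DC, at 2169 and 3170 CPM, and CD45-negative cells, at 2196 and 2748 CPM, came next, overlapping in WT. With these gates no class was past 2-fold for Ifitm3. Mature DC held 996 and 1302 CPM, a log2 ratio of 0.39 (0.19 to 0.58), but 1 WT cell held 176 of the 312 UMIs. Without the cell with the most UMIs in each library they held 474 and 1208 CPM, past 2-fold at a log2 ratio of 1.35, and with stricter gates 347 and 921 CPM, a log2 ratio of 1.41. CD4 T cells had 984 and 1938 CPM and a log2 ratio of 0.98 (0.79 to 1.18), and CD8 T cells held 469 and 859 CPM, a log2 ratio of 0.87 (0.81 to 0.94). With these gates it was lower in the library labelled Siah2-/- in 2 classes. NK cells held 600 and 506 CPM, a log2 ratio of -0.24 (-0.32 to -0.17), which stricter gates left at -0.24 but which was 0.16 in the barcodes below the analysed cells. Those barcodes held Ifitm3 at only 0.0996 and 0.0950 of free RNA. Treg held 1013 and 778 CPM, a log2 ratio of -0.38 (-0.55 to -0.21), but their direction turned with stricter gates, to 750.5 CPM in 25 cells and 1135 CPM in 31, a log2 ratio of 0.60. In other T cells the values were 700 and 681 CPM, and the log2 ratio of -0.04 was within counting error, while stricter gates gave 399 and 806 CPM, a log2 ratio of 1.01. In NK cells Ifitm3 was at 0.254 and 0.182 of its free RNA level, above the median lacking gene at 0.0297 and 0.0480. The median collagen gene was at 0.409 and 0.0973 there, so in WT it stood above Ifitm3.

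Among the 9 classes Ifitm6 was highest in DC and macrophages. DC held 82.7 CPM in WT and 404 CPM in the Siah2-/--labelled library, a log2 ratio of 2.29 (1.78 to 2.82), from 45 and 111 UMIs. It was the 1 of 4 members past 2-fold in DC, against 5.26% of genes. Stricter gates left 1 and 20 UMIs of it in DC. Below the analysed cells, 12 WT barcodes of the DC gate held 769.5 CPM of Ifitm6 from 51 UMIs, and the other library had no such barcode. Macrophages held 58.3 and 188 CPM, a log2 ratio of 1.69 (1.60 to 1.78), and Ifitm6 was 95th of 10899 genes there. That 2-fold difference was not kept over all barcodes of at least 500 UMIs, where the log2 ratio was 0.71, nor in the barcodes below the analysed cells, where it was 0.20. The share of macrophages with an Ifitm6 UMI at 4000 UMIs was 12.1% (10.7 to 13.5) and 31.4% (29.5 to 33.3). In the lymphoid classes other than WT Treg it was at most at 5.97 CPM. CD8 T cells held 6 and 48 UMIs, which gave a log2 ratio of 2.35 (1.12 to 3.87), but 1 cell held 23 of the 48. Without the cell with the most UMIs of each library, Ifitm6 was at 0.0113 and 0.0373 of free RNA in CD8 T cells, under the median lacking gene. WT Treg held 18 UMIs (28.8 CPM) and the others 3.

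Macrophages were a range from monocyte-like to mature cells, and the members spread along it differently. The cells were divided by UMIs of Ly6c2, Chil3, Vcan, Plac8 and Ccr2, monocyte genes, into low (under 10 per 10000 UMIs), middle and high (40 or more). These are ranges cut from a score and not types. The high range held 28.3% of WT and 41.9% of Siah2-/--labelled macrophages. Adgre1, which encodes the macrophage antigen F4/80, was detected in 80.7% and 64.0% of all macrophages. Cd3d, a T cell gene, was detected in 6.62% and 19.0% of them, and its part in the result was not tested.

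Ifitm6 and Ifitm3 were highest in the monocyte-high range. Ifitm6 was at 7.64, 29.0 and 202 CPM in the low, middle and high range of WT, and at 21.1, 75 and 492 CPM in the library labelled Siah2-/-. Ifitm3 was at 3178, 4373 and 6996 CPM and at 3949, 5619 and 8163 CPM. Ifitm2 was less spread, at 1396, 1767 and 2079 CPM and at 2026, 2607 and 3099 CPM. Ifitm1 did not follow the range, with 271, 636 and 569 CPM in WT and 1512, 2549 and 1740 CPM in the other library, so its highest value was in the middle in both.

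Within each range all 4 members were higher in the library labelled Siah2-/-. For Ifitm1 the log2 ratio was 2.48 in the low, 2.0 in the middle and 1.61 in the high range. For Ifitm6 it was 1.46, 1.37 and 1.28, each under the 1.69 of macrophages as a whole. For Ifitm2 it was 0.54, 0.56 and 0.58, and for Ifitm3 0.31, 0.36 and 0.22. Macrophages with 2 or more UMIs of the cycling genes Mki67 and Top2a held less of each member than those with none. Ifitm1 was at 331 against 492.5 CPM in WT and at 719 against 2081 CPM in the library labelled Siah2-/-. Ifitm6 was at 23.7 against 72.4 CPM and at 24.7 against 215 CPM, so that among these 228 and 96 cells it did not differ between the libraries beyond counting error.

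**Figure D4:**
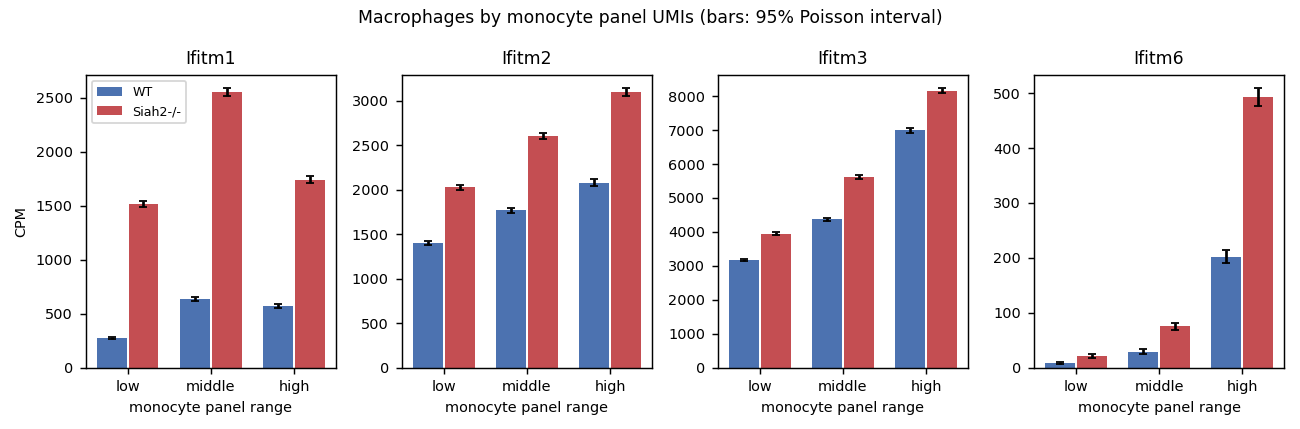
Level of each member (CPM, bars from 0, 95% Poisson interval) in macrophages of the low, middle and high range of monocyte genes, in WT (blue) and in the library labelled Siah2-/- (red). Ifitm6 and Ifitm3 are highest in the high range, where Ifitm6 reaches 202 and 492 CPM, and Ifitm1 is highest in the middle range (636 and 2549 CPM).

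Across single macrophages the members went together only in part. Spearman's rho, at 4000 UMIs and as a description, was 0.35 in 2025 WT cells and 0.46 in 2286 others between Ifitm3 and Ifitm6, and 0.30 and 0.44 between Ifitm2 and Ifitm3. Between Ifitm1 and Ifitm6 it was 0.09 and -0.07. The share of monocyte genes had a rho of 0.56 and 0.64 with Ifitm3 and of 0.17 and -0.13 with Ifitm1. In CD8 T cells the closest pair was Ifitm1 and Ifitm2, with 0.48 in 467 WT cells and 0.62 in 843 others. Cells of 1 library share its depth and free RNA, and no p is given for these values.

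CD45-negative cells held Ifitm2 and Ifitm3 but hardly any of the other members. Ifitm2 was found in 94.8% and 96.9% of them at 4000 UMIs and Ifitm3 in 97.3% and 97.7%. Their log2 ratios were 0.35 (0.30 to 0.40) and 0.32 (0.29 to 0.36). Hmga2, used as a mark of the tumor line, was detected in 84.3% and 72.9% of these cells and the fibroblast gene Dcn in 76.7% and 82.9%. The melanocyte genes Tyr and Sox10 had 0 UMIs in WT, so the tumor cells could not be told by pigment genes. Cells were therefore set apart by Hmga2 and its panel against fibroblast genes. In those with 4 or more UMIs of the tumor panel, Ifitm3 was at 1883 CPM in 327 WT cells and 2947 CPM in 43 others. In those with fibroblast genes and at most 2 tumor UMIs it was at 2736 CPM in 309 cells and 2817 CPM in 46. Ifitm2 was at 717.5 and 1168 CPM in the first group and at 1356 and 1374 CPM in the second. Thus both genes were higher in the library labelled Siah2-/- in the Hmga2-type cells, and their intervals overlapped between the libraries in the fibroblast-type cells.

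Barcodes with fewer UMIs than any analysed cell of their library show how far these values depend on which barcodes are counted. They are called small for their UMI count, and cell size was not measured. There were 4814 WT and 3376 Siah2-/--labelled barcodes from 500 UMIs up to the lowest analysed count, with at most 10% mitochondrial UMIs. They pass the same gates but are not in the deposited tables. The lowest analysed count was 6670 in WT and 4896 in the other library, so these 2 sets do not cover the same range of UMIs. Small macrophages had medians of 5411 and 3825.5 UMIs, and small CD8 T barcodes 4674.5 and 4087. In macrophages Ifitm1 was at 443.5 CPM in 1142 WT barcodes and 1740 CPM in 366 others, a log2 ratio of 1.97 (1.89 to 2.05) that is close to that of the analysed cells. In CD8 T cells there was no such difference. Ifitm1 was at 1655 CPM in 580 WT barcodes and 1653 CPM in 204 others, a log2 ratio of 0.00 (-0.09 to 0.09), against 1.48 above the minimum. In Treg it was at 39.1 CPM in 362 barcodes and 228 CPM in 153, a log2 ratio of 2.54 (2.03 to 3.08), but 1 barcode held 59 of the latter's 119 UMIs, and the levels were 0.0815 and 0.150 of free RNA. In other T cells it was at 362 and 472 CPM, a log2 ratio of 0.39 (0.27 to 0.50). In NK cells it was at 31.1 and 125 CPM, or 0.0649 and 0.0821 of free RNA against 0.0394 and 0.0674 for the median lacking gene.

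**Figure D5:**
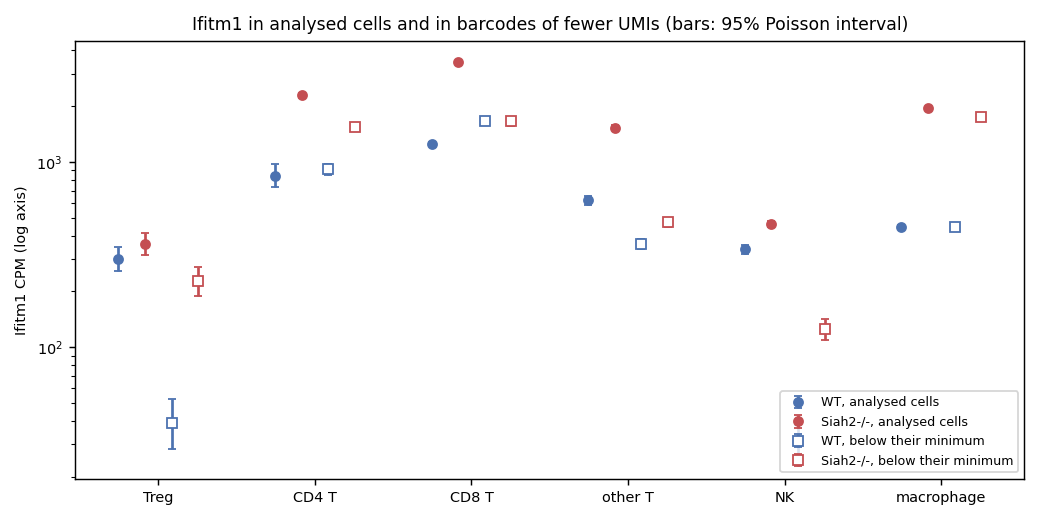
Ifitm1 level (CPM, log axis, 95% Poisson interval) in 6 classes, in analysed cells (filled) and in barcodes of 500 UMIs up to the lowest analysed count (open), in WT (blue) and in the library labelled Siah2-/- (red). The libraries differ in macrophages on both sides of that count, and in CD8 T cells only above it (1251 and 3480 CPM against 1655 and 1653 CPM below it). That count is 6670 UMIs in WT and 4896 in the other library.

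Among small barcodes the differences of the other members were smaller in some classes and larger or turned in others. Ifitm2 was higher in the library labelled Siah2-/- in 6 of 6 lymphoid and macrophage classes, with log2 ratios from 0.39 to 1.19, and past 2-fold in Treg. In small CD8 T barcodes it was at 445 and 790 CPM, a log2 ratio of 0.83 (0.68 to 0.97). Ifitm3 had an interval above 0 in 4 of 6 classes, with log2 ratios from 0.09 to 0.61. Its levels in Treg there were 546 and 830.5 CPM, and in NK cells 235 and 264 CPM (log2 ratio 0.16, 0.00 to 0.33), in both the opposite direction to the analysed cells. In small NK barcodes, however, Ifitm3 was at 0.0996 and 0.0950 of free RNA and Ifitm2 at 0.102 and 0.0979. The median lacking gene was at 0.0394 and 0.0674, so free RNA could supply much of these levels and their direction is not read. Ifitm6 in macrophages was at 378 and 436 CPM, a log2 ratio of 0.20 (0.07 to 0.34), against 1.69 in analysed cells. Of those small macrophages 75.4% in WT and 60.7% in the other library lay in the monocyte-high range, an order opposite to that of the analysed cells.

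Granulocytes were found almost only among the small barcodes, and they held members at high levels. The mast cell and basophil gate gave 12 WT and 9 Siah2-/--labelled barcodes. Cd200r3 was detected in all of them, and Mcpt8, a basophil protease, in 75% and 100%. Cpa3, a mast cell protease, was detected in 75% and 0% of them. Ifitm1 was at 10670 CPM in WT and 14970 CPM in the other library, a log2 ratio of 0.49 (0.28 to 0.70), above each of the 9 classes of analysed cells. It was detected in 9 of 12 and 9 of 9 barcodes. Ifitm6 had 0 UMIs in them. The neutrophil gate, led by S100a8 and S100a9, gave 20 and 53 barcodes. In these Ifitm2 was at 4530 and 4817 CPM, Ifitm3 at 3639 and 3621 CPM and Ifitm1 at 2246 and 2110 CPM. Ifitm6 was at 348 and 338 CPM in them, from 9 and 30 UMIs, or 7.19 and 4.33 times free RNA, and above analysed macrophages. The libraries did not differ there beyond counting error in any member. In free RNA S100a8 was at 160 and 342 CPM and Mcpt8 at 4.10 and 9.61 CPM, both higher in the library labelled Siah2-/-, and their cells' part in the free RNA level of the members was not tested.

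Of the remaining family genes, Ifitm10 was found mostly in NK and T cells and did not differ between the libraries there beyond counting error. NK cells held 45 and 43.3 CPM of it (log2 ratio -0.06, -0.34 to 0.23) and CD8 T cells 25.6 and 21.8 CPM (-0.23, -0.56 to 0.10). Over all cells it was at 7.81 and 12.4 CPM, in libraries with 389 and 616 NK cells. Ifitm5 had 38 and 69 UMIs. Ifitm7, which lies on chromosome 16, had 5 and 44 UMIs, and the deposited table and the matrices differed in 5 WT values of it.

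Genes with the most similar profile were sought over 18 values, 9 classes in 2 libraries, by Pearson's r of log2 CPM among 9576 genes. The values share cells of 2 libraries and their depth, so r is a description. For Ifitm1 these were Gpsm3, Slamf7, Pfkp and Plac8 (each r = 0.83) and Ptpn6 (0.82), of which Plac8 was also a gene of the monocyte panel. For Ifitm2 they were Nptn (0.81), Lgals3 (0.78), Casp1, Ifitm3 and Atf3 (each 0.77). For Ifitm3 they were Grn (0.92), Tgfbi, Dab2 and Adam15 (each 0.90) and Plod3 (0.89). For Ifitm6 they were Cd300a and Nfam1 (each 0.96), with BC028528, 5031414D18Rik and Ptpro (each 0.95). Among the members, Ifitm2 and Ifitm3 (0.77) and Ifitm3 and Ifitm6 (0.70) were alike. Ifitm1 had an r of 0.33 with Ifitm2, 0.28 with Ifitm6 and -0.06 with Ifitm3.

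Other interferon-induced genes were counted in each class beside the members. Of 36 with at least 50 UMIs in macrophages, 1 was at least 2-fold higher in the library labelled Siah2-/-, near the 3.52% of all genes, and none was 2-fold lower, with a median log2 ratio of 0.03 against -0.07 over all genes. The 1 was Gbp2, a GTPase induced by interferon-γ, at 387.5 and 844 CPM, a log2 ratio of 1.12 (1.09 to 1.16). Ifit1 was at 202 and 187 CPM and Rsad2 at 198 and 232.5 CPM in macrophages. Of the 36 in CD8 T cells, 2 were 2-fold higher, against 2.62% of all genes, Rsad2 (16.3 and 34.2 CPM) and Ifit1 (65.9 and 138 CPM), with a median of 0.50 against -0.09. In mature DC 7 of 19 were 2-fold higher, against 5.27% of all genes, led by Ifit1 (22.3 and 85.6 CPM), Irgm1 (28.7 and 103 CPM) and Oasl2 (54.3 and 164 CPM), with a median of 0.72 against 0.02. None of 29 in Treg was past 2-fold in either direction, against 4.9% of all genes higher and 4.59% lower, and none of 36 in NK cells, against 2.74% and 1.75%. In CD4 T cells 3 of 34 were 2-fold higher and 2 lower, near the 9.5% and 5.95% of all genes. In other T cells 3 of 36 were higher, against 3.89%, in CD45-negative cells 2 of 36, against 3.79%, and in DC 1 of 17 was lower, against 4.83%. In free RNA none of 36 was past 2-fold, against 1.74% of 9720 genes higher, and the median was 0.06 against 0.02 over all genes.

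Among 12 partner and receptor genes, Cd81, the tetraspanin partner, was lower in the library labelled Siah2-/- in each of the 8 leukocyte classes. In macrophages it was at 637 and 257 CPM, a log2 ratio of -1.31 (-1.35 to -1.27), and in mature DC at 820 and 251.5 CPM, a log2 ratio of -1.71 (-2.01 to -1.40). In CD8 T cells it was at 62.3 and 11.8 CPM, a log2 ratio of -2.40 (-2.74 to -2.08). The lower of these values was 0.0473 of free RNA, which is at the level of the lacking genes. In Treg it was at 248 and 176 CPM, a log2 ratio of -0.50 (-0.86 to -0.13). In CD45-negative cells Cd81 did not differ beyond counting error, at 778 and 768 CPM and a log2 ratio of -0.02 (-0.08 to 0.05). Nedd4, a ubiquitin ligase that acts on IFITM3, was at 21.0 and 7.82 CPM in macrophages, a log2 ratio of -1.42 (-1.68 to -1.18), and at 440 and 510.1 CPM in CD45-negative cells. In free RNA Cd81 was at 406 and 249 CPM, a log2 ratio of -0.71 (-0.80 to -0.61). Thus 2 of 12 were 2-fold lower in macrophages, against 4.77% of all genes, and none in CD45-negative cells, against 3.8%. Among those with at least 50 UMIs, 2 of 12 were also 2-fold lower in CD8 T, 2 of 10 in CD4 T and 2 of 11 in other T cells, against 2.66%, 5.95% and 5.09% of all genes. In NK cells 1 of 12 was lower, against 1.75%, and in Treg none of 7, against 4.59%. In DC 1 of 8 was higher and 1 lower, against 5.26% and 4.83%, and in mature DC 1 of 7 each, against 5.27% and 1.71%. No gene of the list was 2-fold higher in the other classes.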

How the data were processed

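The deposited matrices hold raw counts (UMIs per gene and barcode), which the authors made with Cell Ranger on mm10/GRCm38 from 10x 3′ v2 libraries. Its version was not given in the sources used here. The authors' table of raw counts held 4524 WT and 5576 Siah2-/- cells, after removal of cells in the lowest and highest 2% of genes per cell and of those over 10% mitochondrial UMIs. A deposited table of natural log values gave only the list of cells. The rows of the 4 genes in the table of raw counts equalled the matrices in every cell.

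Members and gene lists were chosen with earlier results of these data known. Genes were named by rule: the members in every class, other family genes, Siah2, the 5 most alike genes of each member (at least 200 UMIs, pseudocount 10 CPM), and up to 3 genes per direction of each list past 2-fold with at least 50 UMIs. Genes so named in 1 class were followed in others. A class needed at least 4 UMIs of its marker panel (neutrophil 10, mature DC 6 with Ccr7, B cell 6, Foxp3 or Cd4 1) and at most 2 of excluding panels, and CD45-negative cells at most 5 leukocyte UMIs. Thresholds were set after the UMI distributions had been seen. UMIs were summed per class and scaled to CPM, with exact Poisson intervals. Ratios have exact conditional binomial intervals and shares Clopper-Pearson intervals. With 1 library per genotype there was no test. Doublets were not called, and an alternative without the top 5% of cells by UMIs stands in. Thinning drew 4000 UMIs per cell, and no analysed cell was shallower. Intervals were checked on simulated counts. Python 3.11.15, numpy 2.4.6, scipy 1.17.1 and pandas 2.3.3 were used. A division of T cells by a further gene panel is not reported here.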

Additional observations from a re-analysis of the deposited data

How the results depend on the processing

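No paired analysis was possible because each genotype gave 1 library. In CD8 T cells and macrophages no log2 ratio of a member changed direction under any alternative that gave one. Subtraction of free RNA gave none for Ifitm6 in CD8 T cells. Its WT level there, 0.0226 of free RNA, was under the median lacking gene at 0.0398. With the higher minimum of UMIs per cell in both libraries, Ifitm1 and Ifitm2 in CD8 T cells came to 1.57 and 1.61, and Ifitm1, Ifitm2, Ifitm3 and Ifitm6 in macrophages to 2.17, 0.56, 0.32 and 1.24. Stricter gates gave 1.52, 1.62 and 1.0 for Ifitm1, Ifitm2 and Ifitm3 in CD8 T cells and 0.45 for Ifitm3 in macrophages. The mean of CPM per cell gave 1.31 for Ifitm1 in CD8 T cells, and 2.03 for Ifitm1 and 0.44 for Ifitm3 in macrophages. Without the 5% of cells with the most UMIs, Ifitm3 in CD8 T cells was 0.95, and Ifitm1 and Ifitm3 in macrophages were 2.16 and 0.42. Scaling by the median of gene ratios gave 1.56, 1.62 and 0.96 in CD8 T cells and 2.19, 0.70 and 0.48 in macrophages for the same 3 genes. With free RNA subtracted, Ifitm3 was 0.96 in CD8 T cells and 0.43 in macrophages. With all barcodes of at least 500 UMIs, an alternative chosen after seeing the data, Ifitm1, Ifitm2 and Ifitm3 in CD8 T cells were 1.27, 1.46 and 0.76, and Ifitm2, Ifitm3 and Ifitm6 in macrophages 0.53, 0.25 and 0.71. The cause of these shifts was not tested.

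The ratio of Ifitm1 in Treg did depend on the processing, with -0.52 at the higher minimum, 3.01 with stricter gates, 0.96 as a mean per cell, 0.67 without the top cell, -0.09 with free RNA subtracted and 1.22 over all barcodes of at least 500 UMIs. Ifitm2 in Treg ranged from -0.36 at the higher minimum to 1.22 with stricter gates, and Ifitm3 in Treg from -0.74 to 0.60 under the same settings. Stricter gates also gave 5.28 for Ifitm6 (1 and 20 UMIs) and 1.90 for Ifitm2 in DC, 1.16 for Ifitm2 in other T cells and -0.01 for Ifitm2 in NK cells. Over all barcodes of at least 500 UMIs Ifitm3 in mature DC was 1.16. Of the 30 ratios with at least 50 UMIs, 27 kept their direction with stricter gates and at the higher minimum, and 25 of 27 over all barcodes of at least 500 UMIs. Of the 11 past 2-fold, 10 stayed past it with stricter gates and 9 as a mean per cell, and 8 of 10 over all barcodes of at least 500 UMIs. Depth limits Ifitm6 outside macrophages and DC, where none of the other 7 classes held over 48 UMIs, and the classes of 22 to 55 WT cells.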
